A study of Mus musculus with 16 samples.

Results

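The comparison described here set stressed mice with an active coping strategy (AS, dep2 in the labels) against stressed mice with a passive coping strategy (PS, dep1 in the labels), both after an injection of saline and without any drug. Its members were the 3 AS saline libraries and the 2 PS saline libraries, 5 of the 16 libraries of the series, and all 14504 listed genes were tested. The tissue was the dorsal raphe nucleus (DRN) of male C57BL/6 mice, 10 to 12 weeks old, taken with a biopsy punch from frozen sections. AS and PS mice had both been defeated by aggressive CD1 males over 30 days (chronic social defeat stress), received saline intraperitoneally the day after the last session and were killed 6 h later. Unstressed mice given saline (control saline, 3 libraries) and stressed mice given 2 mg/kg of dexamethasone (DEX; 3 PS DEX and 2 AS DEX libraries), a synthetic agonist of the glucocorticoid receptor, were used for reference. The series holds 3 libraries of unstressed mice given DEX as well.

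Some features limit the groups as models. The coping groups were not assigned but were formed by hierarchical clustering of the behavior of defeated mice during non-aggressive contact, in which PS mice mainly froze and AS mice stayed active, so coping group cannot be told apart from any other difference between the mice that preceded it. Each library came from a punch, which holds neurons, glia, vessels and some lining of the cerebral aqueduct. The study describes more DRN libraries than were analyzed here. Both arms compared hold fewer libraries than the replicates per treatment that the study gives, PS saline most of all, and the reason is not known. The authors dropped samples of stressed mice after DEX where Tph2 was low, and they give no such removal for saline.

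The DRN contains most of the serotonin neurons that project to the forebrain. These neurons make serotonin with tryptophan hydroxylase 2 (Tph2), release it onto stress-responsive circuits and are restrained by the inhibitory autoreceptor Htr1a and by local GABA neurons. Activity of this nucleus is known to influence whether an animal meets an inescapable threat with passive or active behavior, and the question of the comparison was which genes differed in this nucleus between mice that had met the same stress in these different ways.

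The 5 libraries held between 39845090 and 62447298 reads in the listed genes. Values below are normalized counts, that is, reads divided by 1 size factor per library, and libraries are named by group and number (PS 62 and 68, AS 8, 14 and 40). AS 40 stood apart from the rest. It was the highest or the lowest of the 5 libraries for 74.6% of the genes, against 22.2% to 38.2% for the other 4. Its correlation with AS 8 and AS 14 across genes (0.967 and 0.972) was below that between those 2 (0.984) and that between the 2 PS libraries (0.985). Correlations between an AS and a PS library ran from 0.964 to 0.989, and the highest exceeded every correlation within the arms. By this measure the arms did not separate. Pairs of control saline libraries were at 0.970 to 0.974. Many results that leaned on AS 40 are therefore given with and without it, and others with it only.

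No gene differed between AS saline and PS saline at an adjusted p under 0.1 in the limma fit over all libraries (0 of 14504, or 0.0%; lowest adjusted p 0.728). At an unadjusted p under 0.05 there were 494 genes (3.41%), of which 256 were higher and 238 lower in AS. That count was 139 without AS 40, 2017 without AS 8, 329 without PS 62 and 307 without PS 68. DESeq2 on the recovered reads called 1 gene (0.0069%), Mid1, and edgeR's quasi-likelihood test called 0, with 577 (3.98%) and 453 (3.12%) genes under that unadjusted p. All 3 AS libraries lay above both PS libraries for 1589 genes (11.0%) and below both for 1837 (12.7%). The single genes described first are those with the smallest p or the largest difference among genes with at least 100 normalized counts on average and no overlap between the arms. All of these had an adjusted p of 0.728 in limma, so each is described by its values and not as a change. Members of gene lists follow, whether or not their arms overlapped.

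Mid1 had the smallest p of all genes. It encodes midline 1, a ubiquitin ligase on microtubules that binds a regulatory subunit of protein phosphatase 2A, and in this mouse strain it spans the border of the pseudoautosomal region, the end of the X and Y chromosomes that pairs in male meiosis (GRCm38 chromosome X, 169685199 to 170005736, plus strand). It was at 136 and 174 normalized counts in PS 62 and 68 and at 835, 739 and 502 in AS 8, 14 and 40. The PS libraries were the lowest 2 of all 16 and the groups did not overlap. The mean was 692 ± 172 (SD, n = 3) in AS and 155 ± 26.7 (SD, n = 2) in PS. The log2 difference was 2.13 (95% confidence interval 1.07 to 3.19, limma adjusted p 0.728), or 4.37-fold, and it was 2.34 without AS 40. The adjusted p was 0.00187 with DESeq2, 0.764 with edgeR and 0.0967 with library weights in limma. Those weights were 5.66 for AS 14, 0.88 for AS 8 and 0.18 for AS 40, so the AS mean of that fit rested mostly on AS 14. In it 2298 genes (15.8%) had an unadjusted limma p under 0.05.

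The level of Mid1 also varied widely among mice of one group. Control saline libraries were at 567, 188 and 372, which reaches from near the PS values to within the AS values. After DEX the order did not recur, with 531, 1143 and 1096 in PS and 1161 and 538 in AS, a log2 difference of -0.14. Reads of Mid1 can be shared with an annotated partial copy, Mid1-ps1, so its value is uncertain. Among its binding partners and relatives, 9 of 11 listed genes were measured, with a median of 0.12 (0.031 without AS 40, 0.065 without PS 62 and 0.18 without AS 8). Those after Mid1 by p were Mid1ip1, a Mid1-interacting protein (0.17, SE 0.11), and Ppp2ca and Ppp2cb, the catalytic subunits of protein phosphatase 2A (0.22 and 0.12, SE 0.16 and 0.12). The 300 bases around the first RefSeq start of Mid1 (GRCm38.p6, chrX:169684949-169685248, plus strand) are shown because this gene had the smallest p and was the 1 gene called with DESeq2. They hold 43.7% G and C, and no capitals are used because they hold no match to the motifs searched here.
Mid1: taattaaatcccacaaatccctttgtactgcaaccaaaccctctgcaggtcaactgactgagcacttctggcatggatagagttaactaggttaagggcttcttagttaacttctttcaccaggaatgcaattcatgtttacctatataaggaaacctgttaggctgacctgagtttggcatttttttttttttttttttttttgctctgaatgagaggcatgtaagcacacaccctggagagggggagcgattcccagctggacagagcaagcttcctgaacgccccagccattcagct

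Gm21887 and Gm47283, at the ends of the X and Y chromosomes, were chosen for large differences with separated arms. That AS lay above PS in both followed from that choice and adds no support to Mid1. Within AS the order differed, as AS 40 was the highest for both and the lowest for Mid1. Gm21887, which RefSeq lists under the name Erdr1 (GRCm38 chromosome X, 170009659 to 170019281), was at 32.1 and 74.6 in PS 62 and 68 and at 226, 124 and 311 in AS 8, 14 and 40, a log2 difference of 2.05 (SE 0.67). Gm47283, a gene model at the matching end of the Y chromosome (GRCm38 chromosome Y, 90784738 to 90816464), was at 156 and 358 in PS and 804, 359 and 1608 in AS, where AS 14 and PS 68 were nearly level, and its difference was 1.71 (SE 0.74). Both genes also spread widely within other groups. Control saline libraries ranged from 70.3 to 258 for Gm21887 and from 182 to 696 for Gm47283, and PS DEX libraries from 169 to 554 and 609.5 to 1691. Both chromosome ends carry near-identical sequence, and reads of these models may be split among copies. Of 8 listed genes from the male-specific part of the Y chromosome, 4 were measured, with a median difference of -0.12.

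**Figure D1:**
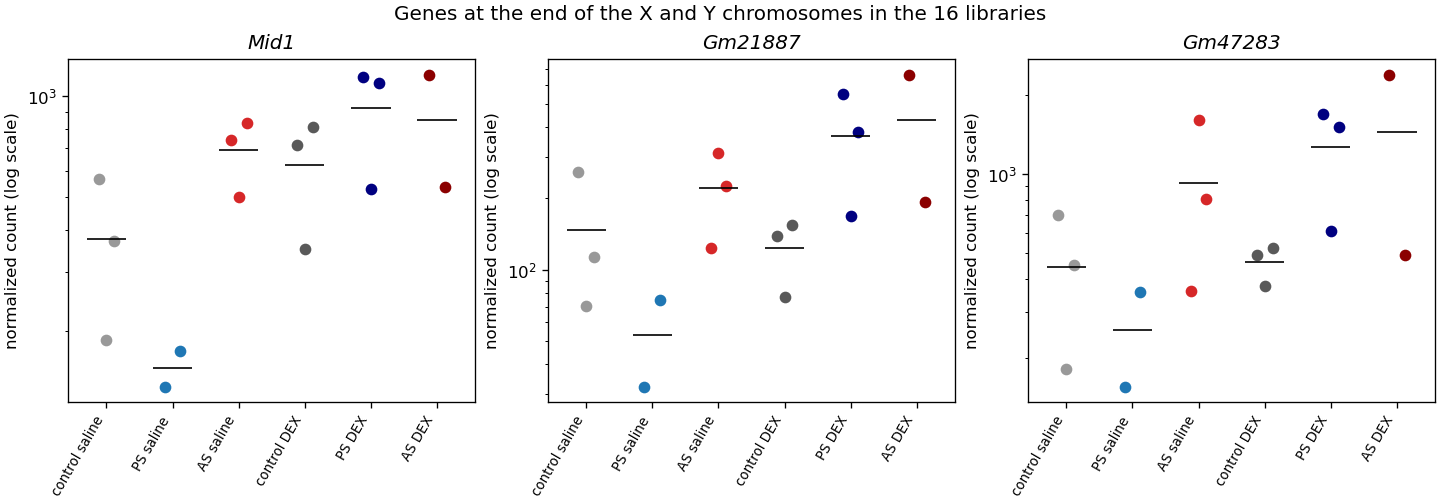
Normalized counts on a log axis of Mid1, Gm21887 and Gm47283 in each of the 16 libraries by group, with points for libraries and bars for group means. Mid1 lay at 136 and 174 in PS saline and at 502 to 835 in AS saline, while the control saline libraries ranged from 188 to 567 and the DEX groups overlapped.

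Next came the other genes that were higher in AS. Lrrc6 (GRCm38 chromosome 15, 66379858 to 66500910), whose protein assembles the dynein arms of motile cilia, was at 205 and 228 in PS and 302, 433 and 417 in AS, against 251, 246 and 313 in control saline. It was 0.81 higher on the log2 scale (SE 0.20, limma adjusted p 0.728) and had an adjusted p of 0.0967 with library weights. B2m (GRCm38 chromosome 2, 122147686 to 122153083), the light chain shared by all major histocompatibility complex class I molecules, was at 2155 and 1938 in PS and 2388, 3114 and 3451 in AS, a difference of 0.53 (SE 0.15). In both genes the arms did not overlap, and AS 8, the lowest of the AS libraries, was at or within the control range, which was 2333 to 2575 for B2m.

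Several of the higher genes act in metabolism and protection of the cell. Nfe2l2, the transcription factor NRF2 of the antioxidant response, was at 439 and 489.8 in PS and 575, 715 and 671 in AS (0.49, SE 0.16), with controls at 424 to 489.7. Cbr3, a carbonyl reductase, was at 82.8 and 48.7 in PS and 126, 111 and 167 in AS (1.05, SE 0.40). Eci1, a mitochondrial enzyme in the oxidation of unsaturated fatty acids, was at 501 and 502 in PS and 633, 772 and 902 in AS (0.60, SE 0.18). Fpgt, an enzyme that activates fucose for glycosylation, was at 668 and 691 in PS and 786, 891 and 1010.4 in AS (0.39). In all 4 the AS and PS values were apart, and AS 40 held the highest value in 3 of them.

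A further 5 higher genes act at the cell surface, in signaling or in the cell cycle. Serpine2, a secreted inhibitor of serine proteases made largely by glia and the most abundant of these genes, was at 8566 and 8566 in PS and 10504, 10722 and 11193 in AS (0.33, SE 0.10). Jam2, a junctional adhesion molecule, had 1525 and 2024 against 2094, 2436 and 2662 (0.44), with its upper PS value close to the lowest AS value. Gng12, a gamma subunit of heterotrimeric G proteins, had 1436 and 1583 against 1859.7, 2038 and 1924 (0.36). Dcbld1 had 454 and 392 against 582, 556 and 587 (0.44), and Anapc13, a subunit of the anaphase-promoting complex, had 742 and 644 against 812, 996 and 1038 (0.45). The 12 higher genes with the smallest p differed by 0.33 to 2.13 on the log2 scale, and by 0.30 to 2.34 without AS 40. The list is completed by the processed pseudogene Gm11223 (127 and 118 against 263, 185 and 270.0, 0.94). By size of difference the rule added Gm28661, an unprocessed pseudogene whose difference of 1.15 came mainly from AS 8, at 5551 where the other 4 libraries were at 706, 1013, 1111 and 1080.0.

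Among genes that were lower in AS, Abca7 came first. It encodes a lipid transporter of the ABC family (GRCm38 chromosome 10, 79996494 to 80015572) and was at 1650.5 and 1962 in PS and 1366, 1248 and 1088 in AS, a log2 difference of -0.55 (SE 0.14, limma adjusted p 0.728). The groups did not overlap, and controls, at 1498, 1181 and 1198, were all below PS. Usp19, a deubiquitinating enzyme, was at 7552 and 7445 in PS and 6619, 5993 and 5473 in AS (-0.32, SE 0.10). Nol9, a kinase of ribosomal RNA processing, was at 1113 and 976 in PS and 884, 778 and 712 in AS (-0.40). The transcription factor Klf13 was at 4293 and 4585 in PS and 3819.9, 3335 and 2996 in AS (-0.40), and the zinc finger gene Zscan25 at 683 and 642 in PS and 526, 508 and 463 in AS (-0.41). In these 5 genes AS 40 was the lowest of all 5 libraries, and without it the differences were -0.46, -0.25, -0.33, -0.31 and -0.36.

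Cyb561d1, a gene of the cytochrome b561 family, was at 805 and 831 in PS and 677, 632 and 619 in AS (-0.35, SE 0.11), and controls ran from 682 to 787. A further 4 entries are not protein coding. They were the processed pseudogene Gm13292 (251 and 333 against 176, 23.0 and 49.4, -2.28), the processed transcripts 5730405O15Rik (191 and 164 against 114.4, 73.5 and 115, -0.83) and Gm9899 (468 and 449.8 against 348, 336 and 249.9, -0.57), and the unprocessed pseudogene Gm49327 (442 and 489 against 378, 308 and 289, -0.52). A pseudogene can take reads of its parent, so these values are uncertain. The remaining 2 genes, Zbtb16 and Pla2g3, are described with the glucocorticoid targets. The 12 lower genes differed by 0.32 to 2.28 in size, and by 0.25 to 2.16 without AS 40. Chosen by size alone were Prdm11 (1617 and 1706 against 1426, 1125 and 378), Gm45869, Gm44586 and Mir1188, with differences of -0.97, -1.26, -1.10 and -1.05. All 4 had their lowest value in AS 40, and their differences without it were -0.39, -0.74, -0.29 and -0.69.

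**Figure D2:**
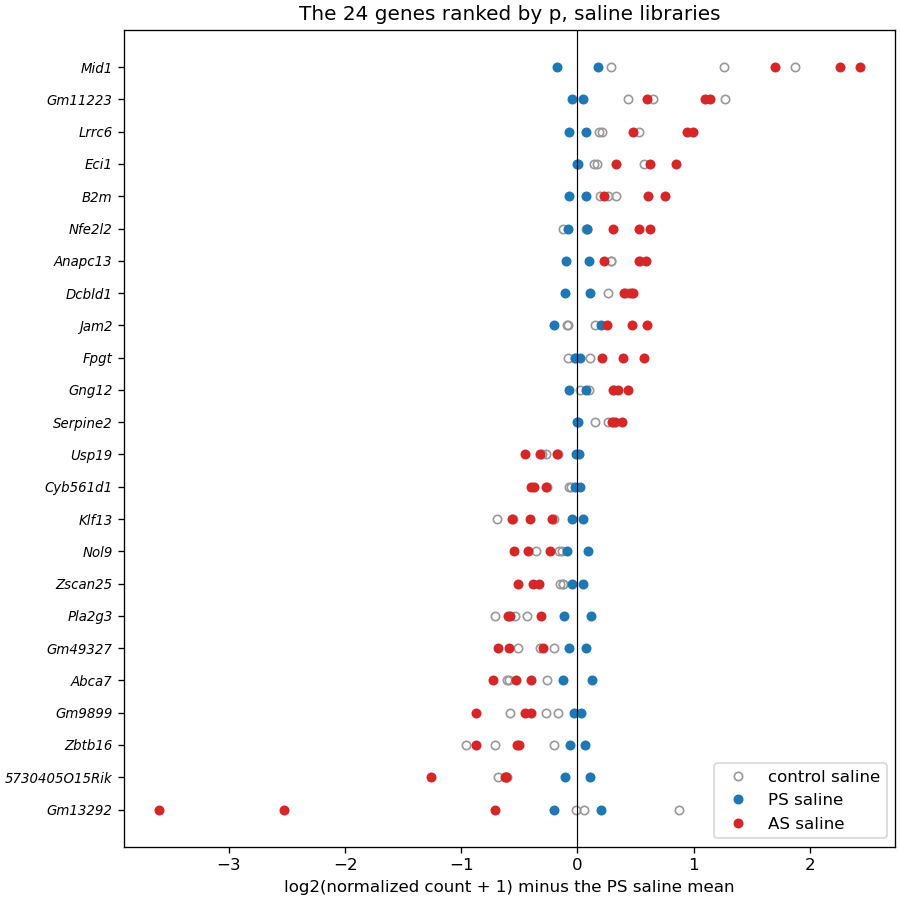
Log2(normalized count + 1) of the 24 genes with the smallest p, each point 1 saline library (filled blue PS, filled red AS, open gray control), as the distance from the mean of the PS libraries. Red and blue points do not overlap because the genes were chosen that way; Mid1 and Gm13292 lie farthest from 0, at 2.13 and -2.28 for the group difference.

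Glucocorticoid target genes were examined because the mice differed in their response to the same stressor, and no synthetic hormone had been given in these libraries. Of 30 target genes 28 were measured, 16 with a higher and 12 with a lower estimate in AS, and their median was 0.052 beside 0.0024 over all genes. It was 0.0061 without AS 40, 0.0078 without PS 62 and 0.028 without PS 68. None was called, 3 had an unadjusted p under 0.05 and all of these were lower in AS, and in 6 every AS library lay below both PS libraries (12.7% of all genes). Zbtb16, a transcription factor strongly induced by glucocorticoids, was at 1088 and 1195 in PS 62 and 68 and 793, 803 and 622 in AS 8, 14 and 40, with a difference of -0.63 (SE 0.20). The groups did not overlap, and controls, at 696, 584 and 989, were all below PS. Plin4, a lipid droplet coat protein, was at 211 and 228 in PS and 168, 126 and 124 in AS (-0.66, SE 0.27), and Hif3a, a hypoxia-inducible factor subunit, at 411 and 452 in PS and 295, 341 and 128 in AS (-0.87, SE 0.40). Per1, a clock gene that glucocorticoids induce directly, was at 2770.3 and 2385 in PS and 2438, 2169 and 1465 in AS (-0.38), where the arms overlapped. Without AS 40 the differences of Zbtb16, Plin4, Hif3a and Per1 were -0.51, -0.59, -0.44 and -0.16. In promoter windows of 300 bases around RefSeq starts, the glucocorticoid response element (GNACA, any 3 bases, TGTNC) had a match for 5 of the 25 measured targets with a window (Fam107a, Map3k6, Mt1, Sgk1 and Txnip), where 0.536% of all genes with a window had one. The windows of Plin4 and Hif3a held no match, and Zbtb16 and Per1 were not among the matched genes. That count describes the target list and not the difference between AS and PS. Pla2g3, a secreted phospholipase A2 that is not in the list, was at 292 and 343 in PS and 254, 209 and 211 in AS (-0.50, SE 0.16).

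The receptor itself and its best known target showed smaller differences. Nr3c1, the glucocorticoid receptor, was at 6672 and 6189 in PS and 5889, 6021 and 7386 in AS, a difference of -0.0063 (95% confidence interval -0.28 to 0.27). Fkbp5, the chaperone that restrains the receptor and rises with its activity, was at 1519 and 1536 in PS and 1347, 1243 and 1387 in AS, a difference of -0.21 (-0.44 to 0.028, limma adjusted p 0.728), and all 3 AS libraries lay below both PS libraries. The receptors and their chaperones as a list (11 genes) had a median of 0.15, and 0.021 without AS 40 and 0.060 without PS 62. Its leading members were Ptges3, the p23 co-chaperone (5702 and 5744 against 5571, 6052 and 10109.8, highest in AS 40), and the chaperone Hsp90aa1 (45103 and 47652 against 45813, 50728 and 63507). Among 19 immediate early genes, which mark recent neuronal activity, the median was -0.0085, and between -0.029 and 0.088 without any 1 library. Junb was at 244 and 214 in PS and 326, 359 and 235 in AS (0.40, -0.14 to 0.94), with PS 62 between 2 AS libraries, and controls were at 412, 493 and 595. Nr4a1 was at 388 and 363 in PS and 353, 344 and 193 in AS (-0.39, and -0.11 without AS 40).

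The serotonin system showed no difference that passed the test in any member. Of the 12 genes of serotonin synthesis, transport and breakdown, 9 had a higher estimate, and the median of 0.081 became -0.10 without AS 40, -0.083 without PS 68, 0.19 without PS 62 and 0.20 without AS 8, with 0 called in limma and 0 at an unadjusted p under 0.05. Tph2 was at 127929 and 120602 in PS and 103435, 115333 and 182191 in AS, a difference of 0.061 (95% confidence interval -0.46 to 0.58), and Slc6a4, the serotonin transporter, at 109527 and 89052 in PS and 86495, 92796 and 102241 in AS, a difference of -0.077 (-0.53 to 0.38). These high values are those of a punch rich in serotonin neurons. Maoa, which degrades serotonin, was at 5925 and 5582 in PS and 5444, 6065 and 8025 in AS (0.16, -0.15 to 0.47), with AS 40 the highest. The list of 10 transcription factors of serotonin neuron identity had a median of -0.054 that ran from -0.35 to 0.26 when single libraries were left out. Its member Fev was at 6631 and 4293 in PS and 5223, 5648 and 4849.9 in AS (-0.029, -0.67 to 0.61). The intervals allow differences of up to about 0.58 for Tph2, so the groups are not shown to be alike.

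Most serotonin receptors had lower estimates. Of 10 measured, 8 had a lower estimate in AS (median -0.10, and -0.10 without AS 40, the same as that of the synthesis list without AS 40). Htr4, an excitatory receptor, was at 237 and 259.5 in PS and 227, 138 and 95.2 in AS, a difference of -0.78 (SE 0.33, limma unadjusted p 0.0314, adjusted p 0.728), where AS 8 was close to the lower PS library. Htr6 was at 113.9 and 115.7 in PS and 108, 101.1 and 57.7 in AS (-0.42). Without AS 40 the differences of Htr4 and Htr6 were -0.48 and -0.14. The autoreceptor Htr1a was at 7072 and 5449.6 in PS and 5949, 5641 and 6041 in AS (-0.080, -0.34 to 0.18), within the range of the PS libraries.

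Most neuropeptides and their receptors had higher estimates in AS. Of 29 measured genes 21 had a higher estimate, against 50.4% of all genes, with a median of 0.21. None was called, and 3 had an unadjusted p under 0.05, all higher. These were Trhr, the receptor of thyrotropin-releasing hormone (202 and 103 in PS against 394, 188 and 261 in AS, 0.89, SE 0.35), Tacr3, the neurokinin B receptor (290.2 and 261 against 504, 552 and 323, 0.70, SE 0.29), and Pdyn, the dynorphin precursor (2527 and 787 against 2283, 2177 and 3236, 0.84, SE 0.36). Only Tacr3 had arms that did not overlap, and in Trhr and Pdyn it was PS 68 that was low. The list median was 0.10 without PS 68 and 0.32 without PS 62. Vip, vasoactive intestinal peptide, was likewise low in PS 68, with 2899.8 and 203 in PS and 2484, 3198 and 4461 in AS. Markers of dopamine neurons, some of which lie at the edge of the DRN, followed the same libraries: Th was at 3333 and 741 in PS and 3616, 1875 and 1878 in AS, and the list of 7 had a median of 0.19, which was -0.26 without PS 68. In punches, more cells of a type and more RNA in each cell cannot be told apart, here and in the cell type lists that follow.

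Most microglial genes had higher estimates in AS. Microglia are the resident immune cells of the brain and prune and engulf synapses and debris. Of 24 measured markers 23 had a higher estimate, with a median of 0.32, and without AS 40 there were 22 and a median of 0.15. Tyrobp, the signaling adaptor of TREM2, was at 152 and 199 in PS and 236, 252 and 373 in AS (0.69, SE 0.27). Fcgr3, an immunoglobulin receptor, was at 173 and 146 in PS and 209, 193 and 386 in AS (0.65) and the complement gene C1qa at 666 and 637 in PS and 711, 816 and 1011 in AS (0.36). In each of these 3 genes the arms were apart and AS 40 was the highest. Without it the differences were 0.49, 0.33 and 0.23. None was called, and 2 members had an unadjusted p under 0.05. The summed level of the list was 13944 to 14366 normalized counts in PS and 14606 to 20667 in AS. The control saline libraries were at 15206, 14875 and 15495, all above AS 8 (14606), and the highest AS value was that of AS 40.

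Interferon and antigen presentation genes included B2m. Of 19 measured, 15 had a higher estimate and the median was 0.12, but it was 0.0089 without PS 68 and 0.32 without PS 62, and 0.28 without AS 8. Without AS 40 the median was 0.11, and 12 had a higher estimate. Besides B2m, Tap1, which carries peptides to class I molecules, was at 248 and 279 in PS and 299, 389.6 and 356 in AS (0.39, SE 0.16), where the arms were apart. Irf7 overlapped, at 125 and 82.2 in PS and 111, 151 and 195 in AS. The promoter of B2m is shown because it was the leading member and holds a match to the core of the interferon response element (GAAA, any 2 bases, GAAA), in capitals (GRCm38.p6 from RefSeq, chr2:122147437-122147736, plus strand). The motif was searched on both strands of windows of 300 bases, and 3.99% of all 27025 genes with a window had a match. Of the 15 list members with a window, 6 had a match. These were B2m, Bst2, Ifit1, Ifit3, Ifitm3 and Isg15. Tap1 and Irf7 had none in these letters.
B2m: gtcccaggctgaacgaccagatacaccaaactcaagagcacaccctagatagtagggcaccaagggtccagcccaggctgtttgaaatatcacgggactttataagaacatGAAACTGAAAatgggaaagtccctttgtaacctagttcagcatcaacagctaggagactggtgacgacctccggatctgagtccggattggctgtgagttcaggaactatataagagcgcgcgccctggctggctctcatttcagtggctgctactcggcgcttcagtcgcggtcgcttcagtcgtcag

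Other glial genes also had positive medians. Of 24 astrocyte markers 21 had a higher estimate (median 0.22, and 0.16 without AS 40), and of 15 markers of oligodendrocyte precursors 14 did (median 0.13, and 0.16 without AS 40). Among astrocyte genes, Ppp1r3c, a regulator of glycogen synthesis, was at 996 and 1103 in PS and 1195, 1473 and 1690.5 in AS (0.46, SE 0.18), and the calcium-binding protein S100b at 3331 and 4167 in PS and 4417, 4577 and 6145 in AS (0.42, SE 0.20). Their arms were apart. Agt, angiotensinogen, overlapped, with 6909 and 7001 in PS and 6825, 9763 and 10717 in AS. Tmem100 led the precursor list, at 166 and 276 in PS and 278, 356 and 339.6 in AS (0.59, SE 0.27). Over any single library left out, the median stayed between 0.16 and 0.31 for astrocytes and between 0.10 and 0.16 for precursors. For 28 myelin genes it was 0.15 and ran from -0.087 without PS 62 to 0.38 without PS 68. The astrocyte score was -0.15 and -0.12 in PS and -0.10, 0.16 and 0.13 in AS 8, 14 and 40. Control saline libraries were at -0.083, -0.023 and -0.082, all above AS 8. The precursor score of AS 40 (-0.051) was nearly level with that of PS 68 (-0.060), and AS 8 and 14 were at 0.053 and 0.16. No member of these lists was called.

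Genes of motile cilia, which line the ventricles and the aqueduct and are made by ependymal cells, had a high median that rested on single libraries. Of 51 genes 45 had a higher estimate, with a median of 0.51, which was -0.072 without PS 68 and 1.05 without PS 62, and 0.28 and 0.89 without AS 14 and AS 8. The score of the list, the mean log2 deviation of its members, was 0.53 and -0.71 in PS 62 and 68 and -0.38, 0.97 and 0.65 in AS 8, 14 and 40, so the scores of the arms overlapped. In 1 member, Lrrc6, all AS libraries lay above both PS libraries, as they did in 11.0% of all genes. The leading members after Lrrc6 were Tekt4 (137 and 64.9 in PS against 108, 225 and 221 in AS) and Rsph9 (937 and 599 against 818, 956 and 1191), both structural parts of the axoneme, in which AS 8 lay within the PS range. The part of this variation in the value of Lrrc6 was not tested. Choroid plexus genes (8 of 17 measured, median 0.32) ran from -0.28 without PS 68 to 0.71 without PS 62.

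**Figure D3:**
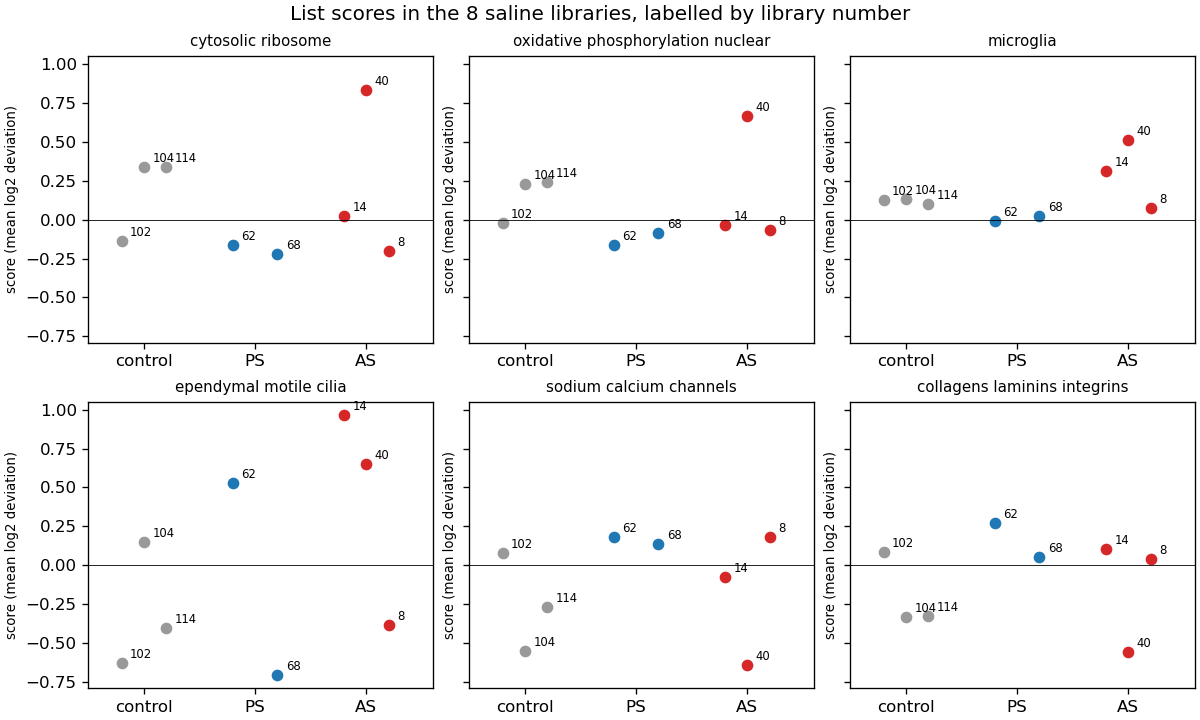
Score of 6 gene lists (mean log2 deviation of the members from their own means over 16 libraries) in the 8 saline libraries, 1 point per library with its number. AS 40 is the highest in ribosome genes (0.84), oxidative phosphorylation (0.67) and microglia (0.51) and the lowest in channels (-0.64) and collagens (-0.56), while AS 8 and AS 14 lie nearer to PS.

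Genes of protein synthesis and energy metabolism had higher estimates in AS almost without exception, and AS 40 carried most of that difference. Of 81 cytosolic ribosome genes 80 had a higher estimate (median 0.43), as did 81 of 82 nuclear genes of oxidative phosphorylation (0.30), 71 of 76 mitochondrial ribosome genes (0.25) and 32 of 34 proteasome genes (0.21). Without AS 40 the medians were 0.12, 0.075, 0.033 and 0.046. AS 40 was the highest of the 5 libraries for 98.8%, 97.6%, 96.1% and 91.2% of the members, against 37.2% of all genes. The ribosomal protein gene Rps23, for example, was at 5589 and 5209.6 in PS and 5697, 7255 and 11986 in AS, and Ndufv2, a subunit of complex I, at 4875 and 5485 in PS and 5754, 6040.1 and 10686 in AS. Mrps36 and Mrpl42, of the mitochondrial ribosome list, were at 618 and 659.6 against 698, 845 and 1178 and 1016 and 1290.0 against 1322, 1422 and 2195. Cytosolic ribosome scores were -0.16 and -0.22 in PS 62 and 68 and -0.20, 0.024 and 0.84 in AS 8, 14 and 40. Those of control saline were -0.14, 0.34 and 0.34, which reached above AS 8 and AS 14 but not AS 40. For oxidative phosphorylation, PS was at -0.16 and -0.086, AS at -0.069, -0.035 and 0.67, and control saline at -0.022, 0.23 and 0.25. Of the 13 genes encoded in the mitochondrial genome itself 10 had a higher estimate (median 0.23), but AS 40 was the highest for 0% of them, and without it the median was 0.33 with 13 higher. Without AS 8 the ribosome and proteasome medians were 0.64 and 0.34. That of the mitochondrial genome was 0.024 without PS 62 and 0.42 without PS 68. No member of these lists was called.

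Genes of synapses, channels and guidance had lower estimates, again more so in AS 40 than in AS 8 and 14. All but 1 of 19 sodium, calcium and related channel genes were lower in AS (median -0.27, and -0.12 without AS 40), as were 36 of 43 genes of the glutamate synapse (-0.20 and -0.060), 43 of 61 potassium channels (-0.16 and -0.058), 43 of 50 axon guidance genes (-0.16 and -0.037) and 15 of 18 RNA silencing genes (-0.21 and -0.12). Cacna1b, the N-type calcium channel of presynaptic terminals, was at 13226 and 12194 in PS and 11576, 10296 and 5504 in AS (-0.55, SE 0.26). Kcnj6, a potassium channel opened by inhibitory receptors such as Htr1a, was at 1466 and 1173 in PS and 1078, 934 and 657 in AS (-0.59, SE 0.28), and Dicer1, which processes microRNA precursors, at 5165 and 4984 in PS and 4708, 4345 and 2692 in AS (-0.42). Without AS 40 the difference of Dicer1 was -0.17. Homer1, a postsynaptic scaffold, was at 1159.7 and 1218 in PS and 1044, 1016 and 1019.6 in AS (-0.21, and -0.21 without AS 40), which makes it one of the members in which AS 40 did not stand out. Sodium and calcium channel scores were 0.18 and 0.14 in PS 62 and 68 and 0.18, -0.075 and -0.64 in AS 8, 14 and 40. Those of control saline were 0.078, -0.55 and -0.27, so AS 14 lay within the control range and AS 40 below it. Without AS 8 the medians were -0.49 for sodium and calcium channels, -0.27 for potassium channels, -0.25 for axon guidance and -0.33 for RNA silencing, and without PS 68 that of potassium channels was -0.052. None was called.

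The difference also varied with transcript length. When all genes were put in 5 equal bins by their longest annotated transcript, the median difference ran from 0.14 in the bin of the shortest to -0.16 in that of the longest, and from 0.054 to -0.062 without AS 40. In AS 40 the median deviation of a gene from its own mean was 0.26 in the shortest and -0.27 in the longest bin, and in the other 4 libraries it ran from -0.078 to 0.014 and from -0.013 to 0.10. Among control saline libraries the deviation went from 0.14 in the shortest to -0.32 in the longest bin in 1 library and from 0.14 to -0.11 in another, so a fall with length was not particular to AS 40. With the length trend of each library removed, the list medians were 0.28 for the cytosolic ribosome, 0.21 for oxidative phosphorylation, -0.11 for sodium and calcium channels, -0.087 for the glutamate synapse and 0.20 for microglia. They were -0.12 for collagens, laminins and integrins, -0.061 for RNA silencing and -0.051 for axon guidance. At an unadjusted p under 0.05 there were 479 genes in that fit.

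**Figure D4:**
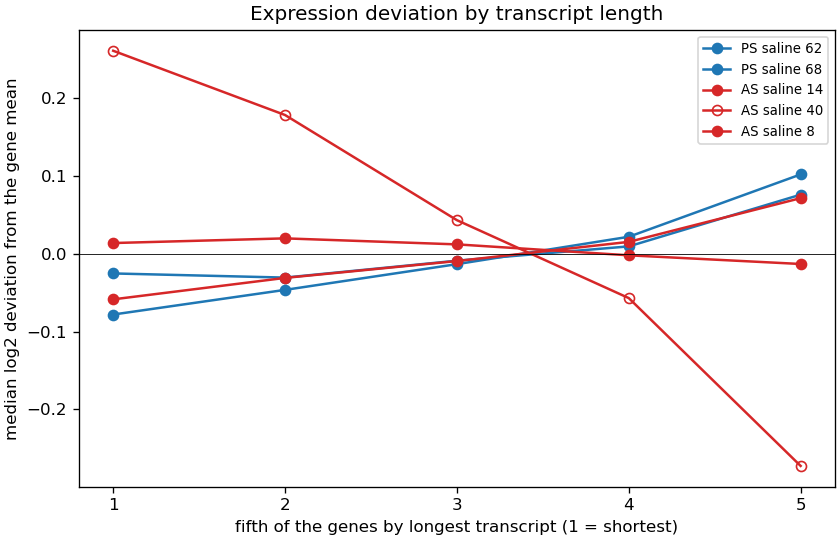
Median, over the genes in each of 5 equal bins of longest transcript, of how far a library lay from a gene's average over 16 libraries (log2 scale), 1 line for each of the 5 compared libraries (blue PS, red AS, open symbols AS saline 40). AS 40 falls from 0.26 to -0.27 across the bins, and the other lines stay nearer to 0.

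Collagen, laminin and integrin genes had mostly lower estimates in AS, with 8 members at an unadjusted limma p under 0.05, more than in any of the other lists. Of 31 collagens, laminins and integrins 22 had a lower estimate in AS (median -0.25, and -0.046 without AS 40). Without AS 40, 13 had a higher estimate, against 9 with it. At an unadjusted p under 0.05 there were 7 lower and 1 higher, where 1.64% and 1.77% of all genes were, and none was called. Col4a1 and Col4a2 encode the 2 chains of the main type IV collagen network of vessels. Col4a1 was at 6469.6 and 4630.0 in PS and 4082, 3561 and 1918 in AS (-0.85, SE 0.33), and Col4a2 at 10102 and 8309.5 in PS and 6980.1, 5642 and 2635 in AS (-0.96, SE 0.36). Without AS 40 the differences were -0.52 and -0.55. Col4a4, a chain of a second network, was at 658 and 484 in PS and 377, 380.4 and 197 in AS (-0.89, and -0.58 without AS 40), and the integrin Itgb5 went the other way, at 1021 and 994 in PS and 1114, 1317 and 1389 in AS (0.33). In each of these 4 genes the arms were apart, with control saline at 4578, 2879 and 2314 for Col4a1. Markers of endothelium and of mural cells, which make these collagens, had medians of 0.15 and 0.051, which were both -0.025 without PS 62 and 0.28 and 0.21 without PS 68.

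Col4a1 and Col4a2 lie head to head on chromosome 8, and their RefSeq starts are 21 bases apart. Their promoter windows of 300 bases overlap by 78 bases. The window of Col4a2 (GRCm38.p6, chr8:11312555-11312854, plus strand) is shown because of this overlap, with the stretch that also belongs to the window of Col4a1 in capitals. Both genes had the same order of libraries, and any part of the shared stretch in that order was not tested. AS 40 was the lowest of the 5 libraries for 67.7% of this list. The window is rich in G and C (73.7%).
Col4a2: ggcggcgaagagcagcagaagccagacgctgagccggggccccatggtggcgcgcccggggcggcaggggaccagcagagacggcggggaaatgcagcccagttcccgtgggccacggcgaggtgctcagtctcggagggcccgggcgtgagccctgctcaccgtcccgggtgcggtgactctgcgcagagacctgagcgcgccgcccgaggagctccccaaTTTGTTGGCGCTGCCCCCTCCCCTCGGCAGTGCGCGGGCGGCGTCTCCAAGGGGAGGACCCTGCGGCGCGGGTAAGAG

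**Figure D5:**
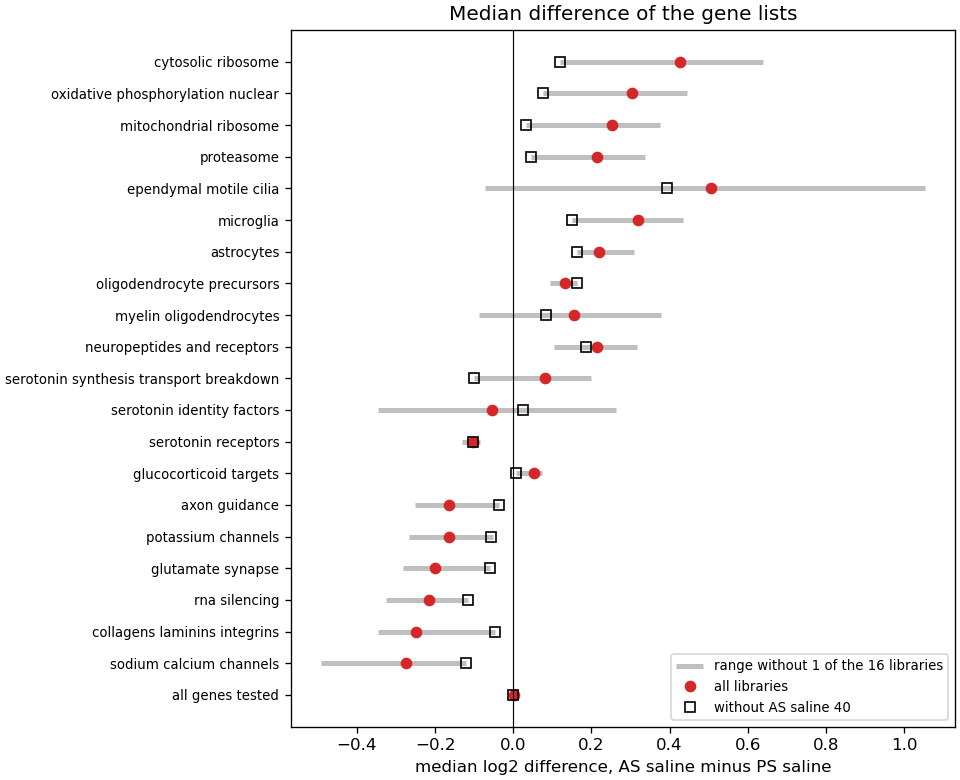
Median log2 difference (AS saline minus PS saline) of 20 gene lists and of all genes, with red points for all libraries, open squares for the fit without AS saline 40 and gray bars for the range when any 1 of 16 libraries was left out. The medians of ribosome and channel genes shrank from 0.43 to 0.12 and from -0.27 to -0.12, and the bar of motile cilia spans 0.

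Other lists held few leads. Metal-handling genes (18 measured, median 0.17, 0.051 without AS 40 and 0.035 without PS 68) included Cp, the copper-binding ferroxidase ceruloplasmin, at 454 and 466 in PS and 502, 669 and 783 in AS (0.48, 95% confidence interval -0.023 to 0.98), with controls at 451, 303 and 294. Its AS values lay above both PS values, which were near the highest control. The iron store Fth1 was at 27840.3 and 33419 in PS and 34899.5, 36373 and 52274 in AS, highest in AS 40. The 20 core clock genes had a median of 0.016, the 17 heat shock genes 0.17 (0.056 without AS 40), the 46 protocadherins -0.15 (-0.021) and the 10 markers of GABA neurons -0.17 (0.032). Markers of motor and cholinergic neurons (5 measured) ran from -1.75 without PS 62 to 1.55 without PS 68, and those of the cerebellum (5 measured) from -0.015 to 0.42. None of 5 markers of noradrenaline neurons was listed. In all 36 lists with 5 or more measured members, 0 members were called by limma.

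The same behavioral contrast was then read after DEX, in 5 other libraries that share no mouse with the first. No gene was called between AS DEX and PS DEX (0 of 14504 in limma, lowest adjusted p 0.293, unadjusted p under 0.05 in 247, or 1.7%). DESeq2 called 4 genes (0.0276%; 298 or 2.05% without adjustment) and edgeR 0 (222 or 1.53%). Of the 24 genes with the smallest p under saline, 8 had an estimate of the same sign after DEX, beside 45.9% of all genes. For B2m the values were 2378, 3080.4 and 2682 in PS DEX and 2368 and 2328 in AS DEX, so that AS lay below PS. For Cyb561d1 they were 576, 597 and 559 in PS DEX and 766 and 744 in AS DEX, with AS above PS. Zbtb16, at 4016, 3887 and 4441 in PS and 3363 and 4018 in AS, was several times its saline level in every DEX library and the arms overlapped. Pla2g3, at 799.7, 911 and 878 in PS and 696 and 729.7 in AS, was the only one of the 24 whose arms were apart in the same direction after DEX (-0.27). Of all genes, 9.52% had both AS DEX libraries above all PS DEX libraries and 9.57% had both below.

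After DEX the list medians were -0.0072 for the cytosolic ribosome, 0.037 for sodium and calcium channels, 0.10 for the glutamate synapse, 0.11 for axon guidance and 0.10 for collagens, laminins and integrins. They were 0.15 for microglia, 0.13 for neuropeptides, 0.076 for oligodendrocyte precursors and 0.038 for astrocytes. The mitochondrial genome stood at -0.61, against 0.23 under saline. The difference between the DEX and the saline contrast was itself called for no gene in limma (lowest adjusted p 0.869; unadjusted p under 0.05 in 421, or 2.9%). DESeq2 called 6 genes (0.0414%; 491 or 3.39% without adjustment) and edgeR 0 (384 or 2.65%). The arms were apart one way under saline and the other way after DEX for 2.52% of all genes, and the same way for 1.71%.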

How the data were processed

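PolyA RNA from DRN punches was sequenced. The authors trimmed reads with fastp (0.20.1), aligned them to GRCm38 with HISAT2 (2.2.1), counted them per gene with featureCounts, and deposited the signal analyzed here, counts divided by 1 DESeq2 (1.36.0) size factor per library; their tables of fold changes and p-values were not used. Whether counting used strand is not given in the sources used here, so values of overlapping genes are uncertain.

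Here log2(normalized count + 1) was fitted in limma (3.58.1; R 4.3.3) with a mean for each of 6 groups over all 16 libraries, eBayes with trend (10 residual and 3.88 prior degrees of freedom) and Benjamini-Hochberg adjustment over 14504 genes, called at adjusted p under 0.1. Fold changes are on this scale, which understates low genes. All p-values without another name are limma's. DESeq2 (1.42.0) and edgeR (4.0.16) ran on whole reads, recovered in 14 libraries as whole numbers within 0.1 for 100% of values; 2 reference libraries (control saline 102, AS DEX 38) were left out of these. Replicate numbers differ between groups, so no libraries were paired. Replicates are separate mice. Same-group pairs with recovered reads in both libraries differed by more than counting noise.

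The members, gene lists, named-gene rule and alternatives were chosen with earlier results of these data known. Named genes are the 12 with the smallest p and the 6 with the largest difference in each direction among genes with a mean of at least 100 and separated arms, genes called by limma, DESeq2 or edgeR, up to 4 list members with the smallest p, and Tph2, Slc6a4, Fev, Maoa, Nr3c1, Fkbp5, Mid1, Junb and Cp.  Of symbols used by several identifiers the one with the higher mean was taken. Annotation was GENCODE vM21, with 14493 genes matched (99.92%). The fit was tested on simulated data. Values of 2 list members are not reported here.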

Additional observations from a re-analysis of the deposited data

Results flagged for a closer look

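Among the genes named in the text, 8 had arms that were apart one way under saline and the other way after DEX. Of all genes 2.52% did so, but most of the 8 were named because their saline arms were apart. That share is therefore no like comparison for them. The p-values below use the same saline values again, so a reversal was favored in advance. The difference between the contrasts was tested in limma, and none passed (adjusted p 0.869 for each). B2m went from 0.53 under saline to -0.20 after DEX, a difference of -0.73 on the log2 scale (unadjusted limma p 0.00325). Fpgt went from 0.39 under saline to -0.17 after DEX, a difference of -0.57 on the log2 scale (unadjusted limma p 0.00678). Cyb561d1 went from -0.35 under saline to 0.39 after DEX, a difference of 0.74 on the log2 scale (unadjusted limma p 0.000363). Gm9899 went from -0.57 under saline to 0.30 after DEX, a difference of 0.87 on the log2 scale (unadjusted limma p 0.00658). Gm28661 went from 1.15 under saline to -0.65 after DEX, a difference of -1.80 on the log2 scale (unadjusted limma p 0.0301). Htr6 went from -0.42 under saline to 0.37 after DEX, a difference of 0.79 on the log2 scale (unadjusted limma p 0.0981). Tmem100 went from 0.59 under saline to -0.39 after DEX, a difference of -0.98 on the log2 scale (unadjusted limma p 0.0229). Ppp1r3c went from 0.46 under saline to -0.22 after DEX, a difference of -0.68 on the log2 scale (unadjusted limma p 0.0186). Gm28661 and Gm9899 are no protein-coding genes, and the saline value of Gm28661 rested on AS 8. Beside these 8, other genes named in the text had arms apart in the same direction under saline and after DEX. Among them were Pla2g3 (-0.50 and -0.27), C1qa (0.36 and 0.15) and Nr4a1 (-0.39 and -0.42). Such genes were not counted here.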

How the results depend on the processing

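The number of genes called between AS and PS saline was 0 in limma and under most alternatives. It was 1 with DESeq2 (Mid1), 2 with library weights (Lrrc6 and Mid1) and 0 to 1 without 1 library (1 without PS saline 62, Kcns1). List members called numbered 1 with DESeq2, 2 with library weights and 0 to 1 without 1 library. After DEX the count was 4 with DESeq2, 4 with library weights, 1 with a pseudocount of 0.1 and 0 to 6 without 1 library (6 without the control saline library whose whole reads were not recovered), and for the difference between the contrasts 6 with DESeq2 and 4 with library weights. Genes at an unadjusted p under 0.05 numbered 494, but 139 without AS 40, 2017 without AS 8, 329 without PS 62, 307 without PS 68, 173 with only the 5 libraries in the fit, 156 with only the 8 saline libraries and 2298 with library weights. Estimates changed sign for Fev (0.061 with library weights, 0.047 with GC content trend removed, from -0.34 to 0.28 without 1 library), Htr1a (from -0.27 to 0.11 without 1 library), Maoa (from -0.0012 to 0.28 without 1 library), Nr3c1 (0.0036 with quantile normalization, 0.00100 with DESeq2, 0.0063 with edgeR, 0.13 with transcript length trend removed, from -0.11 to 0.053 without 1 library), Pdyn (from -0.0015 to 1.68 without 1 library), Ppp2cb (-0.023 with transcript length trend removed), Slc6a4 (from -0.23 to 0.072 without 1 library), Th (from -0.51 to 1.66 without 1 library), Tph2 (-0.060 with quantile normalization, -0.11 with library weights, from -0.19 to 0.22 without 1 library). Of these, Pdyn and Th had sizeable estimates (0.84 and 0.57) that did so without PS 68. No paired analysis was possible because the replicate numbers differ between groups. With 2 and 3 libraries an arm, the values allow any difference within the intervals given.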
